A study of Lathyrus oleraceus with 9 samples.

Results

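Many oligonucleotide probes of the pea array had no product name beyond the statement that a gene-finding program had predicted a protein, and 187 of them belonged to the ageing-responsive probes. These predicted hypothetical proteins were chosen as all probes of a supplementary list, that of the probes changed by ageing, whose product name began with the words "Hypothetical protein predicted by". They made up 187 of the 717 listed probes and of the 5246 probes of the array, and all of them had a value on every array. The other 530 probes of the list carried another product name. Since a probe entered that list through its ratio between aged and non-aged seeds, every ratio given here describes chosen probes, and calls of up- or down-regulation among them are no independent evidence of a change.

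Seeds of Pisum sativum cv Alaska Early were equilibrated at 60% relative humidity to a moisture content of 12% and aged at 50°C for 8, 12 or 15 d, and non-aged seeds served as the control. Each replicate was taken from 20 seeds. On each 2-colour array, RNA of aged seeds was hybridised together with RNA of non-aged seeds under a different dye, and 3 arrays were made per ageing time, 9 in all. The aged RNA carried Cy3 on replicates 1 and 3 and Cy5 on replicate 2. Total RNA of 1 µg per sample was amplified before labelling. Whole seeds were extracted, so that fewer cells of a type and less RNA per cell cannot be told apart. The paper describes partial degradation of RNA in the aged seeds from the first sampling on. With equal amounts of RNA, a ratio compares shares of the RNA and not amounts per seed. Up-regulated and down-regulated refer to this ratio only, and the part of RNA degradation in it was not tested. A ratio gives no level, and the tissue label could therefore not be checked against marker genes. The sources do not state if ageing times shared their non-aged RNA, and the spread given below is that between the 3 arrays of a time.

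Glimmer and Critica, the programs named in the product names, search a nucleotide sequence for stretches likely to code for protein. Both were written for microbial genomes. A protein that is called hypothetical on such a basis has not been observed, and a probe made for it reports a transcript whose function is unknown or was not transferred from a relative. Some of these products nevertheless resemble an entry of a protein database, and an entry may have a name. The probes were therefore kept in 3 classes, with 113 probes without any accession number of a protein database, 43 probes with an accession number only, and 31 probes for which another supplementary list, of the same 717 probes by time course, gave a product name. Probe sequences were not used here, and the probes are identified by the number that the array design gives them.

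The predicted probes were mostly up-regulated. A probe was called at a Benjamini-Hochberg adjusted p under 0.05 from limma, over all 5246 probes, and a mean log2 ratio of 1 or more in either direction, which is a 2-fold change. On this rule 150 of the 187 predicted probes (80.2%) were up-regulated at 1 or more ageing times and 30 (16.0%) were down-regulated. No predicted probe was called in both directions, and 7 were not called. Over all probes of the array, 6.39% were up-regulated and 7.45% down-regulated at 1 or more ageing times. Because the rule for the list used this contrast, nothing was read from the excess of calls among its members, but the choice of members did not fix the direction. Of the other 530 listed probes, 168 (31.7%) were up-regulated and 348 (65.7%) down-regulated. Up-regulated probes thus made up 83.3% of the called predicted probes and 32.6% of the called probes among the others. No test of this difference was made.

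Counts of up-regulated predicted probes were 63, 79 and 136 at 8, 12 and 15 d, where 2.52%, 3.13% and 5.64% of all probes were up-regulated. Down-regulated predicted probes numbered 17, 18 and 28 at these times, against a background of 4.48%, 4.77% and 7.09% of all probes. Among the other listed probes, 63, 82 and 148 were up-regulated at 8, 12 and 15 d, and 211, 226 and 333 were down-regulated. The predicted probes, though fewer, therefore supplied the same number of up-regulated probes at 8 d as the rest of the list. The counts depended on the scale of the arrays: with all arrays brought to the same median absolute deviation, 76, 87 and 89 predicted probes were up-regulated at 8, 12 and 15 d, so that the count at 15 d was close to that at 12 d.

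**Figure D1:**
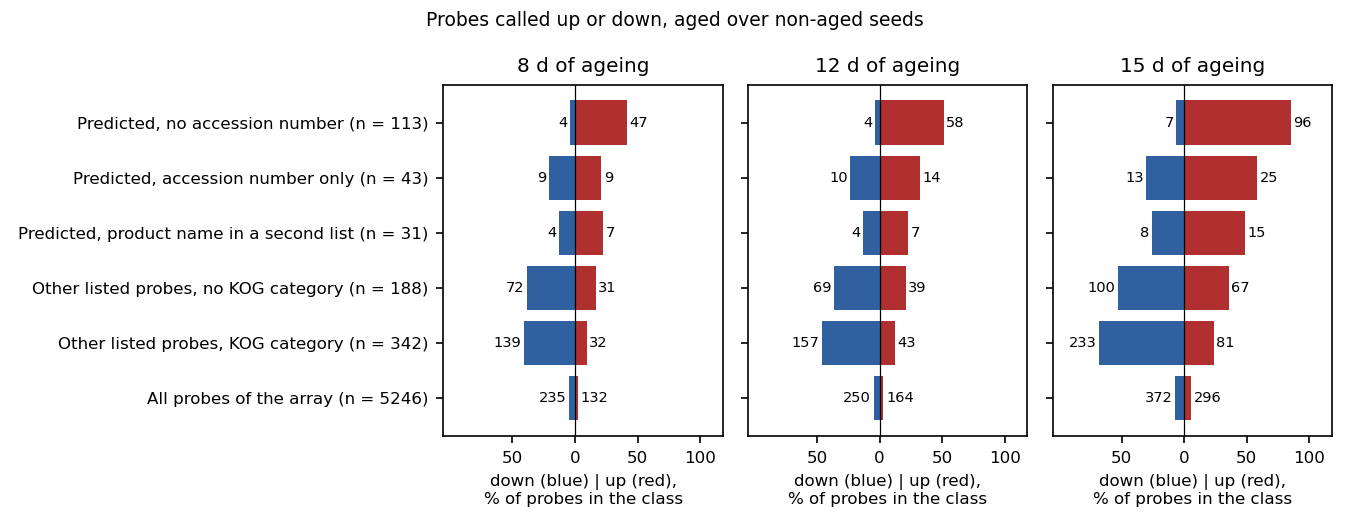
Share of the probes of each class that were up-regulated (red, to the right) or down-regulated (blue, to the left) after 8, 12 and 15 d of ageing, in percent of the class, with the number of probes beside each bar. At 15 d, 96 of the 113 predicted probes without an accession number were up-regulated and 7 down-regulated, and 81 of the 342 other listed probes with a KOG category were up-regulated and 233 down-regulated.

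The share of up-regulated probes differed with the kind of annotation. Of the 113 predicted probes without an accession number, 103 were up-regulated and 7 down-regulated, so that 93.6% of the called ones were up-regulated. Among the 43 with an accession number only, 26 were up-regulated and 15 down-regulated (63.4% of the called ones up-regulated). The 31 with a product name held 21 up-regulated and 8 down-regulated probes (72.4%). Other listed probes that had a product name but no category of KOG, a database of eukaryotic orthologous groups, numbered 188, with 77 up-regulated and 106 down-regulated (42.1%). The 342 with a KOG category held 91 up-regulated and 242 down-regulated probes (27.3%). Of the other probes, 39 bore the name "Expressed protein", and 12 of these were up-regulated and 26 down-regulated. Only 10 of the other probes lacked an accession number, of which 5 were up-regulated and 5 down-regulated, and these are too few to set beside the 113.

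Among the predicted probes with an accession number, the direction also varied with the database of the match. The 39 probes with an entry of TrEMBL, a database of translated nucleotide entries, divided into 19 up-regulated and 17 down-regulated. Those with an entry of TrEMBL's update section numbered 14, with 13 up-regulated and 1 down-regulated. The 20 probes with an entry of PIR, an older protein database, held 14 up-regulated and 5 down-regulated. The last, with an entry of Swiss-Prot, was up-regulated. Up-regulated probes thus predominated among the matches to PIR and to TrEMBL's update section, and the directions were nearly balanced among those to TrEMBL. Over all probes of the array, 6.39% were up-regulated and 7.45% down-regulated, so that 46.1% of the called ones were up-regulated. The groups were small, and the difference between them was not tested.

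Predicted probes held many of the highest places of the whole array. This restates the direction given above, since listed probes were chosen for a large ratio and must lie near either end. Of the 50 probes with the highest mean log2 ratio, 28, 25 and 27 were predicted at 8, 12 and 15 d, and the other listed probes held 18, 23 and 21 of these places. Predicted probes without an accession number held 21, 20 and 21. At the opposite end, 2, 3 and 3 of the 50 lowest probes were predicted at 8, 12 and 15 d. The predicted probes spanned log2 ratios of -2.26 to 2.02 at 15 d, within the range of -3.21 to 2.34 over the other listed probes, and the highest probe of the whole array at 12 d was a predicted one, PSOLI01670 at 2.15.

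Among up-regulated probes, the size of the change was similar in predicted and other probes. The median log2 ratio of the 150 up-regulated predicted probes was 0.94, 1.02 and 1.16 after 8, 12 and 15 d, and that of the 168 other up-regulated probes was 0.92, 0.99 and 1.12. For the down-regulated probes the medians at 8, 12 and 15 d were -1.07, -1.10 and -1.24 over the 30 predicted probes and -1.06, -1.12 and -1.34 over the 348 others.

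The 5 predicted probes with the highest ratio at 15 d had log2 ratios of at least 1.73 on each array of that time and no product name. PSOLI01670, which has an accession number only, gave 1.64, 1.56 and 1.68 at 8 d, 2.13, 2.25 and 2.08 at 12 d, and 1.87, 2.04 and 2.14 at 15 d. Its mean of 2.02 ± 0.14 (SD, n = 3) at 15 d was a 4.05-fold ratio, and its highest values were those of 12 d. PSOLI01569, also with an accession number only, had 1.52, 1.58 and 1.51 at 8 d, 1.71, 1.58 and 1.59 at 12 d, and 2.03, 1.80 and 2.05 at 15 d. All 3 of its arrays at 15 d lay above all 6 earlier ones. PSOLI02839, without an accession number, likewise had its highest arrays at 15 d, with 1.36, 1.15 and 1.33 at 8 d, 1.37, 1.54 and 1.41 at 12 d, and 1.90, 1.77 and 1.87 at 15 d. PSOLI00055 and PSOLI03042, both without an accession number, were already at 1.68 ± 0.15 and 1.57 ± 0.07 at 8 d and reached 1.82 ± 0.05 and 1.76 ± 0.04 at 15 d, so that most of their change was present at the first time sampled.

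At the low end, 2 of the 5 predicted probes had a product name. PSOLI01229 matched HD2-P39, a nucleolar protein of the plant-specific HD2 family of histone deacetylases, enzymes that remove acetyl groups from histones. It gave -1.86, -1.90 and -1.91 at 8 d, -1.97, -2.06 and -2.13 at 12 d, and -2.15, -2.28 and -2.34 at 15 d, and its mean of -2.26 ± 0.10 at 15 d was a 0.209-fold ratio. The arrays of 8 d all lay above those of 15 d. PSOLI00822, named Heme activated protein, had -1.56, -1.55 and -1.51 at 8 d, -1.79, -1.67 and -1.78 at 12 d, and -2.14, -2.26 and -2.10 at 15 d, without any overlap between ageing times. PSOLI00595, without an accession number, gave -1.84, -1.74 and -1.84 at 8 d and -2.15, -2.06 and -2.14 at 15 d, and PSOLI00074 and PSOLI00924, with an accession number only, averaged -1.83 ± 0.11 and -1.79 ± 0.07 at 15 d.

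Most up-regulated predicted probes were called at 15 d, and many of them at no earlier time. Of the 150, 60 were called at 15 d alone, 49 at all 3 times, 20 at 12 and 15 d and 7 at 8 and 15 d. The remaining 14 were not called at 15 d: 4 at 8 d alone, 7 at 12 d alone and 3 at 8 and 12 d. The 168 other up-regulated probes followed a like division, with 71 at 15 d alone, 48 at all 3 times, 22 at 12 and 15 d, 7 at 8 and 15 d, 8 at 8 d alone and 12 at 12 d alone. Of the 30 down-regulated predicted probes, 14 were called at all 3 times, 11 at 15 d alone, and 5 in another combination. Among the 348 other down-regulated probes, 186 were called at all 3 times and 97 at 15 d alone. The largest ratio was that at 15 d in 117 of the 150 up-regulated predicted probes (78.0%) and in 125 of the 168 others (74.4%). Over all up-regulated probes of the array this share was 75.8%. The lowest ratio was that at 15 d in 23 of the 30 down-regulated predicted probes (76.7%) and in 303 of the 348 others (87.1%). Over all down-regulated probes of the array it was 85.9%. The late calls depended on the scale of the arrays. With arrays scaled to the same median absolute deviation, 87 predicted probes were up-regulated at 12 d and 89 at 15 d.

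The change between ageing times was taken from limma contrasts at an adjusted p under 0.05, without a fold-change threshold. At 15 d, 121 of the 187 predicted probes (64.7%) had a higher ratio than at 8 d and 29 (15.5%) a lower one, where 19.8% of all probes were higher and 18.2% lower. These counts are a description, since the same ratios chose the members. Among the up-regulated predicted probes 113 were higher at 15 d than at 8 d and 9 lower, and among the down-regulated ones 20 were lower and 1 higher. The step from 8 to 12 d was the smaller in number, with 37 predicted probes higher at 12 d and 12 lower (all probes, 9.68% and 8.84%), against 85 higher and 28 lower at 15 d than at 12 d (all probes, 12.1% in each direction).

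This growth with time was in part shared by the whole array. The median absolute deviation of the 5246 log2 ratios was 0.386 on each array of 8 d, 0.400 on each array of 12 d, and 0.445 to 0.460 on those of 15 d. Regression of the mean at 15 d on that at 8 d had a slope of 1.172 over all probes, 1.158 over the predicted probes and 1.215 over the other listed probes. Relative to the line over all probes, 103 of the 150 up-regulated predicted probes lay above it at 15 d, with a median distance of 0.077, and 122 of the 168 other up-regulated probes lay above it, with a median distance of 0.107. Of the 30 down-regulated predicted probes, 14 lay above the line, and 93 of the 348 other down-regulated probes did. Most of these probes were called for their ratio at 15 d, which favours a place farther from 0 than the line. These counts and distances are therefore a description, and no growth beyond that of the array was read from them. With every array scaled to the same median absolute deviation, 51 predicted probes were higher at 15 d than at 8 d, in place of 121, and 46 of these belonged to the 121. Whether the wider spread at 15 d arose in the seeds or in the measurement was not tested.

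**Figure D2:**
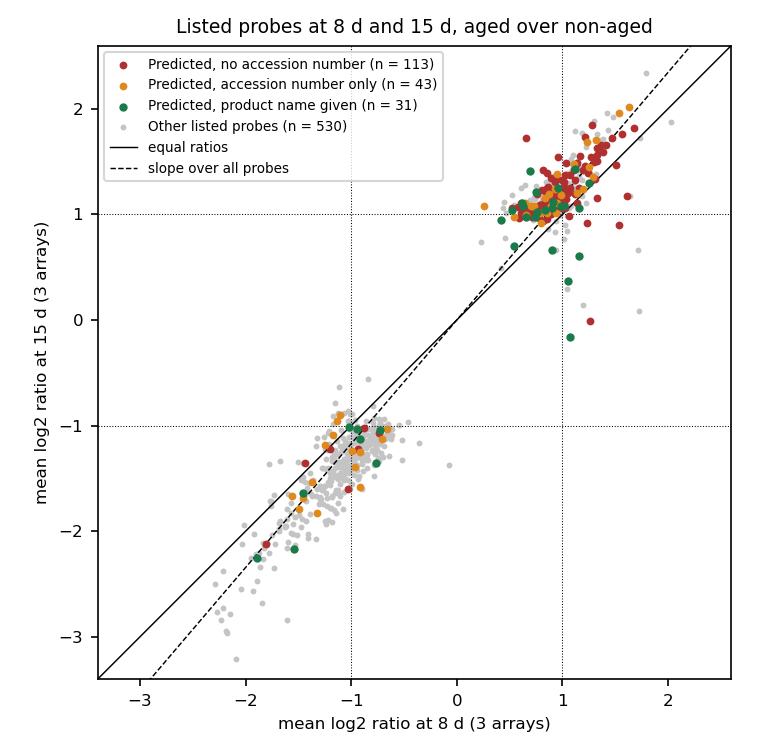
Mean log2 ratio, aged over non-aged, at 15 d (vertical axis) against that at 8 d (horizontal axis) for the 717 listed probes, each a mean of 3 arrays, with dotted lines at the 2-fold threshold. Most predicted probes (red, orange and green) lie in the upper right, with 150 up-regulated and 30 down-regulated. Other listed probes (grey) lie on both sides, more of them in the lower left, with 168 up-regulated and 348 down-regulated. A few predicted probes lie far below the line of equal ratios, near 0 at 15 d.

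The 5 predicted probes with the largest increase between 8 and 15 d included a single one with a product name. PSOLI01600, without an accession number, gave 0.72, 0.62 and 0.64 at 8 d, 1.90, 1.88 and 1.80 at 12 d, and 1.76, 1.69 and 1.72 at 15 d. Its ratio was 1.58-fold after 8 d, 3.63-fold after 12 d and 3.30-fold after 15 d, so that the whole of the increase fell between 8 and 12 d. PSOLI03179, with an accession number only, had 0.03, 0.38 and 0.37 at 8 d, 0.80, 0.84 and 0.66 at 12 d, and 1.17, 0.93 and 1.13 at 15 d, and replicate 1 at 8 d lay apart from the others. The named one was PSOLI02565, similar to the UV-damaged DNA binding factor, a protein that recognises damaged DNA. It gave 0.66, 0.71 and 0.71 at 8 d, 0.92, 0.95 and 1.06 at 12 d, and 1.39, 1.37 and 1.48 at 15 d, a difference of 0.72 (SE 0.056) between 15 and 8 d, and the 3 ageing times did not overlap. PSOLI02358 and PSOLI02327, without an accession number, increased by 0.60 and 0.58 over the same interval.

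Of the predicted probes, 4 were called at 8 d alone, and later lay below the 2-fold threshold. PSOLI03419, without an accession number, gave 1.37, 0.99 and 1.42 at 8 d, -0.03, 0.00 and -0.01 at 12 d, and -0.03, -0.05 and 0.05 at 15 d. A 2.40-fold ratio at 8 d was thus followed by values at the level of non-aged seeds. PSOLI05102, named Ripening-related protein, had 0.68, 1.22 and 1.31 at 8 d, 0.00, -0.18 and 0.07 at 12 d, and -0.19, -0.13 and -0.17 at 15 d. Its arrays at 8 d differed widely, and the mean at 8 d was 0.995 without replicate 2 and 0.950 without replicate 3, below the threshold in each case, and its higher ratio at 8 d than at 15 d held without any 1 replicate. PSOLI02408, similar to purple acid phosphatases, metal enzymes that release phosphate from organic esters, gave 1.14, 0.97 and 1.04 at 8 d, 0.25, 0.16 and 0.27 at 12 d, and 0.44, 0.32 and 0.35 at 15 d. PSOLI02318, a histone H1, was the last of the 4, with 1.13, 1.17 and 1.17 at 8 d, 0.38, 0.65 and 0.60 at 12 d, and 0.63, 0.48 and 0.72 at 15 d. In each of these 4, every array of 8 d lay above every array of 12 and 15 d. PSOLI02408 and PSOLI02318 stayed above 0 on every later array.

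PSOLI02878, without an accession number, was also lower at 15 d than at 8 d but declined gradually, with 1.53, 1.52 and 1.56 at 8 d, 1.34, 1.33 and 1.27 at 12 d, and 0.78, 0.96 and 0.97 at 15 d. PSOLI01572, with an accession number only, became more negative, with -0.82, -0.92 and -1.00 at 8 d, -1.35, -1.25 and -1.44 at 12 d, and -1.60, -1.52 and -1.61 at 15 d. The lowest differences between 15 and 8 d thus held both a loss of early up-regulation and a deepening of down-regulation. For all 10 probes with these extreme differences, the contrast between 15 and 8 d also passed the test with arrays scaled to the same median absolute deviation. For PSOLI01670, PSOLI01569 and PSOLI03042, and for HD2-P39, PSOLI00595 and PSOLI00924, it passed as deposited and did not pass with scaled arrays.

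**Figure D3:**
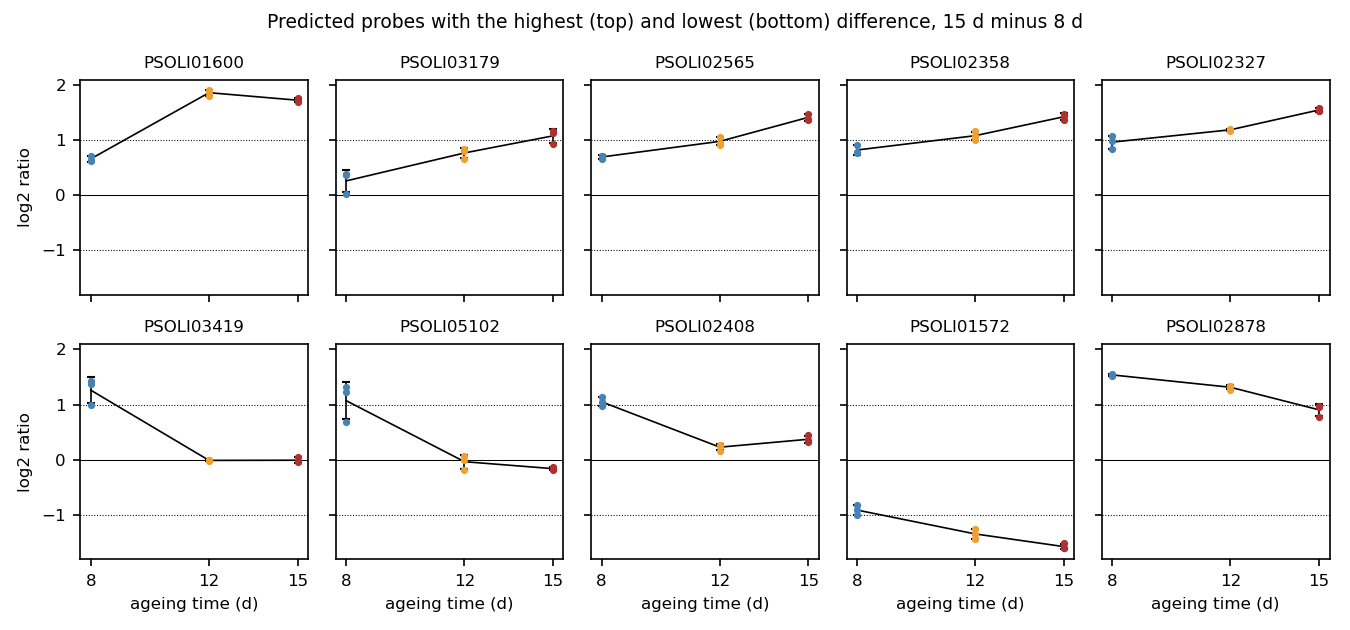
Log2 ratio, aged over non-aged (vertical axis) against ageing time in days (horizontal axis) for predicted probes with a difference among the 5 highest or the 5 lowest between 15 and 8 d, with a point for each array and the mean ± SD of 3 arrays as a line with bars. PSOLI03419, PSOLI05102 and PSOLI02408 had left the upper dotted line of 2-fold change by 12 d, and PSOLI01600 had crossed it by 12 d.

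Of the 31 predicted probes with a product name, 9 had a name that refers to the nucleus, chromatin or DNA damage. These moved in both directions, with 5 up-regulated and 4 down-regulated. Over all predicted probes, 80.2% were up-regulated and 16.0% down-regulated, and over all probes of the array 6.39% and 7.45%. This split was not tested. Beside the UV-damaged DNA binding factor and the transient histone H1, SWI2/SNF2-like protein, a member of the ATPases that remodel chromatin (PSOLI03533), was raised, with 0.90, 1.05 and 0.93 at 8 d, 0.95, 0.91 and 0.98 at 12 d, and 1.32, 1.11 and 1.33 at 15 d. Its arrays of 15 d all lay above the earlier ones, but the difference between 15 and 8 d did not pass with scaled arrays, at 0.12 in place of 0.29. The DDI1-like DNA-damage inducible protein, named after a ubiquitin-binding protein of yeast (PSOLI03158), had 0.66, 0.57 and 0.62 at 8 d, 0.92, 1.01 and 0.88 at 12 d, and 1.10, 1.11 and 1.11 at 15 d, with no overlap between times. A second probe for histone H1, the linker histone that binds between nucleosomes, matched another database entry than the first and took another course. PSOLI04696 gave 0.82, 0.74 and 0.73 at 8 d, 0.88, 0.67 and 0.90 at 12 d, and 1.00, 1.00 and 1.06 at 15 d. These were its highest values, at the time when PSOLI02318 had declined. With arrays scaled to the same median absolute deviation, the difference between 15 and 8 d was 0.12 for PSOLI04696 and did not pass limma's test. For PSOLI02318 it was -0.68 and passed. The down-regulated ones were HD2-P39, Heme activated protein, an R2R3-type MYB transcription factor (PSOLI00662) at -0.92 ± 0.05, -1.01 ± 0.05 and -1.13 ± 0.07 after 8, 12 and 15 d, and a U1 small nuclear ribonucleoprotein, part of the particle that recognises the start of introns (PSOLI00983), at -0.94 ± 0.15, -0.80 ± 0.07 and -1.03 ± 0.12. The time at which PSOLI00983 was called rested on few arrays. Without replicate 3 its ratio was -0.965 at 15 d and -1.015 at 8 d, and the call moved to 8 d.

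All 6 predicted probes with a name from protein synthesis, processing or turnover were up-regulated. Over all predicted probes this share was 80.2%, and over all probes of the array 6.39%, so that nothing particular to these 6 was read from it. The 40S ribosomal protein S24 (PSOLI02286) had 0.73, 0.70 and 0.82 at 8 d, 0.91, 0.87 and 0.92 at 12 d, and 1.22, 1.15 and 1.28 at 15 d. Polyubiquitin (PSOLI02850), the precursor of the tag that marks proteins for degradation, gave 0.58, 0.67 and 0.62 at 8 d, 0.82, 0.88 and 0.81 at 12 d, and 1.07, 0.97 and 1.20 at 15 d. Both had higher values at each later time, without overlap between times. The sentrin-specific protease (PSOLI03067), of a class that removes the ubiquitin-like protein SUMO, was nearly level, at 1.02 ± 0.03, 1.06 ± 0.07 and 1.08 ± 0.07 after 8, 12 and 15 d. The RUB1 conjugating enzyme (PSOLI03202), which attaches the ubiquitin-like protein RUB1 to its targets, had 0.98, 0.77 and 0.77 at 8 d, 0.75, 0.83 and 0.72 at 12 d, and 1.14, 1.02 and 0.97 at 15 d, and its mean at 15 d was 0.995 without replicate 1. The proteasome sub-unit (PSOLI03132) was called at 12 d alone, with 0.74 ± 0.08, 1.03 ± 0.02 and 0.98 ± 0.14 after 8, 12 and 15 d, and the alpha chain of the mitochondrial processing peptidase (PSOLI03369), which cleaves the targeting sequence from imported proteins, stayed between 0.99 ± 0.11 at 8 d and 1.08 ± 0.10 at 15 d. All 6 lay close to the threshold: 4 of the 6 were up-regulated with arrays scaled to the same median absolute deviation.

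The 7 probes named for a stress or a developmental stage had 4 up-regulated and 3 down-regulated members, with their highest or lowest ratios at different times. Over all predicted probes, 80.2% were up-regulated and 16.0% down-regulated, and over all probes of the array 6.39% and 7.45%. With arrays scaled to the same median absolute deviation, 3 of the 7 were up-regulated and 2 down-regulated. The split was not tested. Protein corA (PSOLI05110) was up-regulated at all 3 times, at 1.16 ± 0.05, 1.22 ± 0.17 and 1.06 ± 0.03 after 8, 12 and 15 d. The cold stress protein ci11.8 (PSOLI04970) peaked at 12 d, with 0.44, 0.60 and 0.58 at 8 d, 1.07, 1.07 and 1.10 at 12 d, and 0.76, 0.62 and 0.72 at 15 d. RD22 (PSOLI00886), which in Arabidopsis is induced by dehydration and abscisic acid, was raised late, with 0.59, 0.47 and 0.51 at 8 d, 0.60, 0.71 and 0.58 at 12 d, and 1.15, 1.03 and 0.94 at 15 d, and its mean at 15 d fell below the threshold, at 0.985, without replicate 1. The transient Ripening-related protein was the fourth. Down-regulation was seen for a putative guard cell protein induced by abscisic acid (PSOLI05134), at -1.46 ± 0.12, -1.24 ± 0.02 and -1.64 ± 0.09 after 8, 12 and 15 d, for Embryonic abundant protein (PSOLI03997), at -0.76 ± 0.07, -0.81 ± 0.08 and -1.35 ± 0.05, and for Iron-stress related protein (PSOLI01312), at -0.72 ± 0.12, -0.48 ± 0.04 and -1.04 ± 0.10. The call of the last was lost without replicate 3, where its mean at 15 d was -0.99.

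Among the 5 probes with a name from metabolism, 4 were up-regulated and 1 was not called, where 80.2% of all predicted probes were up-regulated. Sucrose synthase (PSOLI03580), which splits sucrose into fructose and UDP-glucose, gave 1.25, 1.34 and 1.18 at 8 d, 1.33, 1.53 and 1.48 at 12 d, and 1.46, 1.19 and 1.25 at 15 d, above the threshold on all 9 arrays. A listed probe outside the predicted ones, PSOLI04390, also bore the name of sucrose synthase and declined over the same time, with 1.64 ± 0.07, 1.28 ± 0.02 and 1.17 ± 0.08 after 8, 12 and 15 d, while PSOLI03580 had 1.26 ± 0.08, 1.45 ± 0.10 and 1.30 ± 0.14. PetN (PSOLI00063), a small subunit of the cytochrome b6f complex of photosynthesis, was called at 12 d alone, with 0.90 ± 0.03, 1.03 ± 0.03 and 0.66 ± 0.06. The UDP-glucose glucosyltransferase (PSOLI03429), of a class that transfers glucose to small molecules, was not called and had the widest spread of the predicted probes at 12 d, with 0.30, 0.28 and 0.68 at 8 d, 1.05, 1.31 and 0.52 at 12 d, and 0.99, 0.90 and 0.95 at 15 d. Its mean at 12 d was 0.96 over all arrays and 1.18 without replicate 3, where it passed the threshold.

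The last 4 named probes belonged to signalling, the cytoskeleton and the cell wall. Villin (PSOLI01863), of a family that bundles actin filaments, was up-regulated at each time, with 1.11, 1.16 and 1.09 at 8 d, 1.25, 1.19 and 1.22 at 12 d, and 1.44, 1.43 and 1.43 at 15 d. Its arrays agreed closely, and the times did not overlap. With arrays scaled to the same median absolute deviation, its difference between 15 and 8 d was 0.12 in place of 0.31 and did not pass limma's test. A serine/threonine protein kinase-like protein (PSOLI02412) reached 1.06 ± 0.08 at 15 d. AKIN beta1 (PSOLI03667), in Arabidopsis a beta subunit of the SnRK1 kinase that responds to energy supply, was not called, with 0.61, 0.77 and 0.59 at 8 d, 0.78, 0.79 and 0.92 at 12 d, and 0.91, 1.00 and 1.01 at 15 d, and its mean at 15 d passed the threshold, at 1.005, without replicate 1. A probe similar to a linker protein of the cell wall and plasma membrane (PSOLI00421) was down-regulated at 8 and 15 d, at -1.02 ± 0.04 and -1.01 ± 0.10, with -0.82 ± 0.04 at 12 d between them, and was below the threshold at 15 d without replicate 2, at -0.955.

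**Figure D4:**
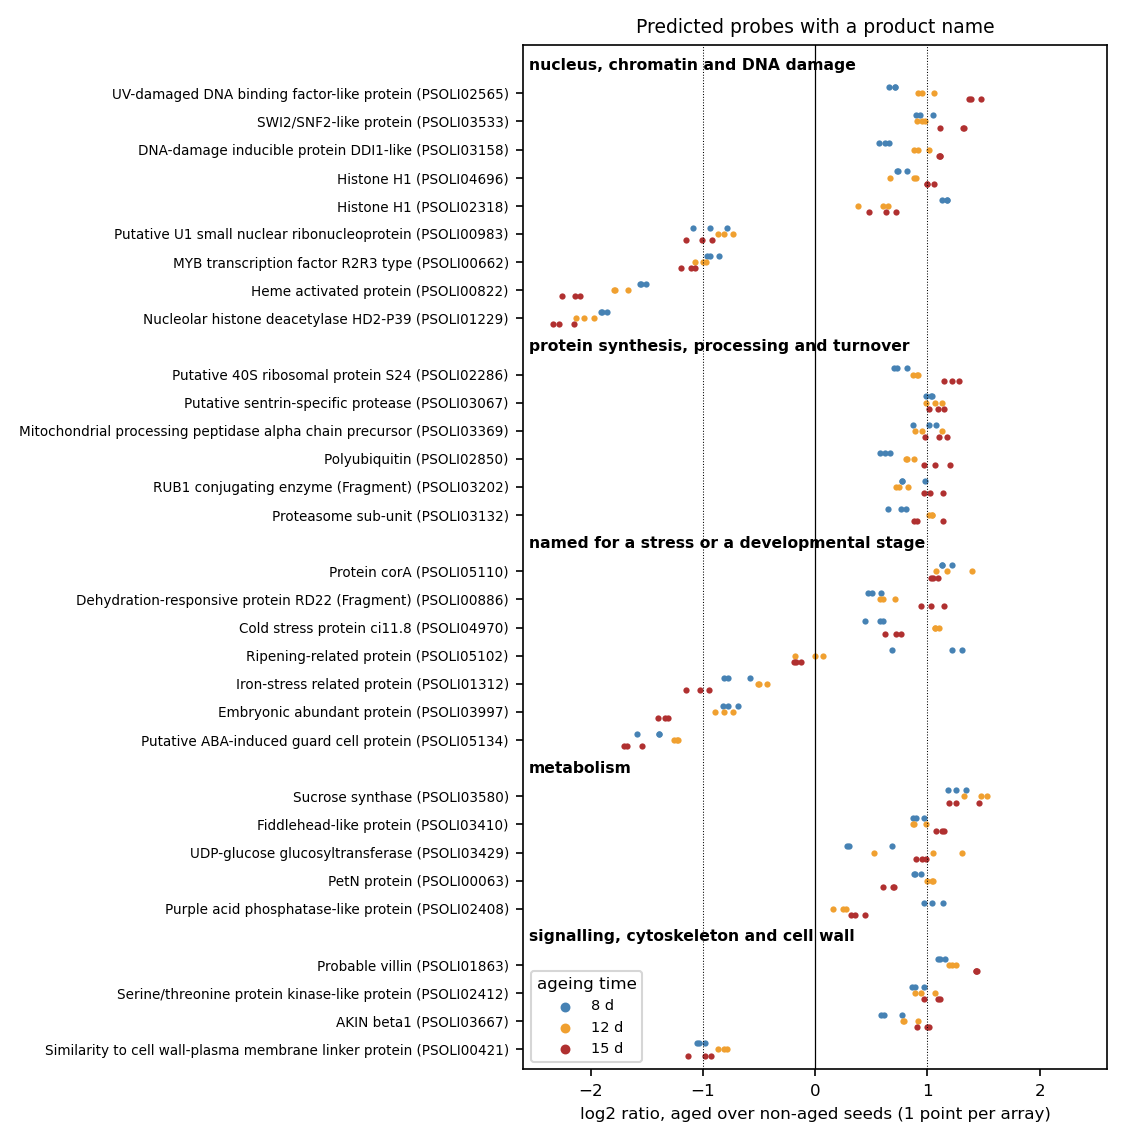
Log2 ratio, aged over non-aged (horizontal axis) on each of the 9 arrays for the 31 predicted probes with a product name, grouped by role, with 8 d in blue, 12 d in orange and 15 d in red and dotted lines at the 2-fold threshold. The 6 probes of protein synthesis, processing and turnover all lie to the right of 0, the 9 of the nucleus, chromatin and DNA damage on both sides, and 3 probes (PSOLI02318, PSOLI05102 and PSOLI02408) have their values of 8 d far to the right of the later ones.

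Some predicted probes shared the accession number of their database match with another listed probe, which formed 7 pairs. Such probes can lie on different members of a gene family or on different stretches of a transcript, and which of these applies was not tested. In 4 pairs both probes went the same way. HD2-P39 (PSOLI01229) shared its match with Histone deacetylase 2a (PSOLI04371), and both were down-regulated, with -1.89 ± 0.03, -2.05 ± 0.08 and -2.26 ± 0.10 after 8, 12 and 15 d for PSOLI01229, against -1.05 ± 0.06, -1.12 ± 0.06 and -1.41 ± 0.10 for PSOLI04371. The predicted probe was the lower of them on every array. For the mitochondrial processing peptidase, PSOLI03369 had 1.08 ± 0.10 at 15 d and PSOLI00013 had 1.09 ± 0.05. RD22 was called at different times by its probes, with 0.52 ± 0.06, 0.63 ± 0.07 and 1.04 ± 0.11 after 8, 12 and 15 d for PSOLI00886, against 0.42 ± 0.22, 1.12 ± 0.16 and 0.49 ± 0.12 for PSOLI04742. The fourth pair held PSOLI00192 and PSOLI01726, both predicted and both raised, at 1.01 ± 0.06 and 1.48 ± 0.02 after 15 d, though PSOLI00192 was below the threshold, at 0.985, without replicate 1.

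In the other 3 pairs the predicted probe was up-regulated and its partner down-regulated. The Fiddlehead-like protein (PSOLI03410) gave 0.90, 0.87 and 0.97 at 8 d, 0.88, 0.99 and 0.87 at 12 d, and 1.08, 1.13 and 1.15 at 15 d. Its partner PSOLI00935, named 3-ketoacyl-CoA synthase 10, the enzyme encoded by FIDDLEHEAD in Arabidopsis, which lengthens fatty acids, gave -1.28, -1.40 and -1.21 at 8 d, -1.71, -1.74 and -1.95 at 12 d, and -1.73, -1.49 and -1.82 at 15 d. The 2 probes differed by 2.80 on the log2 scale at 15 d. PSOLI02499 had 0.69, 0.74 and 0.69 at 8 d, 0.69, 0.60 and 0.77 at 12 d, and 1.09, 1.04 and 1.12 at 15 d, whereas F-box/LRR-repeat protein 5 (PSOLI00977), of a family that selects proteins for ubiquitination, had -1.86, -1.80 and -1.82 at 8 d, -1.96, -1.99 and -1.95 at 12 d, and -2.13, -2.17 and -2.17 at 15 d. No array of either pair had the same sign for both probes. PSOLI03508 averaged 0.93 ± 0.06, 0.90 ± 0.08 and 1.24 ± 0.02 after 8, 12 and 15 d, against -1.00 ± 0.05, -1.16 ± 0.01 and -1.37 ± 0.03 for the steroid-binding protein 2 of the same match (PSOLI04034). Opposite directions were not particular to predicted probes: of 44 pairs of other listed probes with a shared accession number, 27 had the same sign and 17 opposite signs at 15 d.

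**Figure D5:**
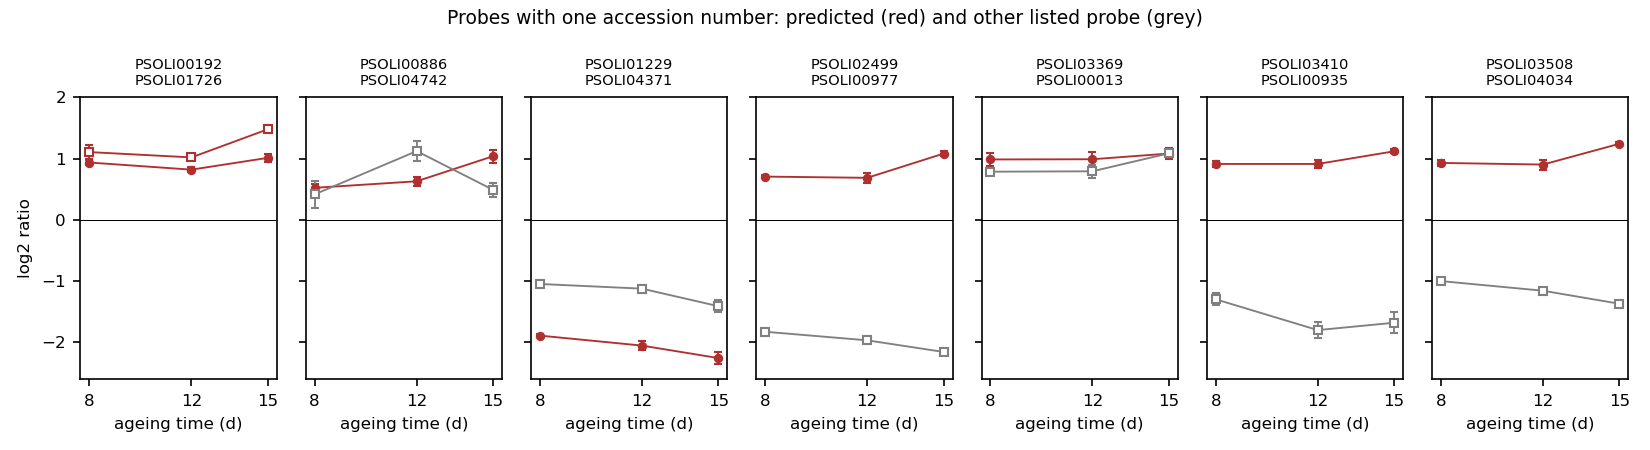
Log2 ratio, aged over non-aged (vertical axis, mean ± SD of 3 arrays) against ageing time in days (horizontal axis) for the 7 pairs of probes with a shared accession number, with the predicted probe in red (filled circles), and its partner as open squares, red where it is also a predicted probe and grey otherwise. In the pairs of PSOLI02499, PSOLI03410 and PSOLI03508 the predicted probe lies above 0 and its partner below 0 at all 3 times.

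The direction of the predicted probes also varied with the number of the probe in the array design. Of the 58 predicted probes with numbers from 3000 to 3999, 51 were up-regulated and 4 down-regulated, and of the 44 from 2000 to 2999, 42 were up-regulated and 2 down-regulated. The 43 with numbers from 1 to 999 held 25 up-regulated and 17 down-regulated probes. The same blocks differed over all probes: 8.2% were up-regulated and 2.8% down-regulated from 3000 to 3999, and 5.0% up-regulated and 14.2% down-regulated from 1 to 999. Within the block from 3000 to 3999, the 50 other listed probes divided into 27 up-regulated and 23 down-regulated, and within that from 1 to 999 the 149 others divided into 23 and 124. In each of the blocks from 1 to 999, 1000 to 1999, 2000 to 2999, 3000 to 3999 and 4000 to 5220, the predicted probes had more up-regulated than down-regulated members. Whether the numbers follow the source of the sequences or the place on the slide was not given in the sources used here, and the part of either in the result was not tested.

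The spread between arrays of an ageing time was similar in predicted and other listed probes. The median SD over the 3 arrays was 0.057, 0.064 and 0.055 after 8, 12 and 15 d, where the other listed probes had 0.055, 0.061 and 0.057. The exchange of dyes on replicate 2 allowed a comparison of dye orientations. The list also asked for agreement between replicates, which favours probes with a small dye difference, so the result is a description. In a fit with a term for dye orientation, 0 of the 187 predicted probes passed limma's test at an adjusted p under 0.05, as did 0.0% of all probes, and 6 (3.2%) had an unadjusted p under 0.05, against 5.03% of all probes. The dye coefficients of the predicted probes lay between -0.079 and 0.095 on the log2 scale, small beside their ratios.

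The 7 predicted probes without a call all had positive means at every time and lay just under the threshold. The nearest was PSOLI05011, with an accession number only, which had 1.01, 0.95 and 1.03 at 15 d and a mean of 0.997. PSOLI03060 followed with 1.07, 0.94 and 0.97 at 15 d and a mean of 0.993, and PSOLI01929 with 1.09, 0.87 and 0.97 at 12 d and a mean of 0.977. On the other side of the threshold, PSOLI00003 had 1.02, 1.03 and 0.95 at 15 d, PSOLI03142 had 0.88, 1.03 and 1.11, and PSOLI02943 had 1.02, 1.00 and 1.01. The single arrays of probes just inside and just outside the threshold overlapped, and calls there depended on single arrays. PSOLI00003 was below the threshold without replicate 1, at 0.99, and without replicate 2, at 0.985, and PSOLI03142 without replicate 2, at 0.995, and without replicate 3, at 0.955. PSOLI00885 and PSOLI01212 had 0.97 ± 0.22 and 0.97 ± 0.09 at 15 d, and the glucosyltransferase and AKIN beta1 described above were the remaining pair.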

How the data were processed

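The authors described processing of the 2-colour arrays in limma by background correction, print-tip loess within arrays and a scaling between them by the median absolute value. The version was not given in the sources used here. The values used here did not have 1 scale across ageing times. Their median absolute deviation was 0.3855 at 8 d, 0.4003 at 12 d and 0.4448 to 0.4596 at 15 d. Why they differed was not tested, and results with scaled arrays are given beside those as deposited. The deposited values were log2 ratios of aged over non-aged seeds and were taken as they stood. Their sign was that of the supplementary list for 187, 187 and 186 predicted probes at 8, 12 and 15 d. Only product names, accession numbers and KOG categories were taken from the supplementary lists.

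All 9 arrays were fitted in limma 3.58.1 (R 4.3.3), 1 coefficient per ageing time with 6 residual degrees of freedom, after tests on simulated data. Summaries used Python 3.11.15 with pandas 2.3.3 and numpy 2.4.6. The number of arrays limits the precision.

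The members, lists and roles were chosen with earlier results of these data known. Named were all members with a product name, the 5 highest and 5 lowest at 15 d and in the difference between 15 and 8 d, those sharing an accession number with a listed probe, and the 3 nearest the threshold on each side. The second sucrose synthase probe was set beside its namesake, and PSOLI00885 and PSOLI01212 were named after their values were seen. Of 73 distinct accession numbers, 0 matched the RefSeq annotation. Alternatives were scaling or centring of arrays, the replicate number as a block, a term for dye orientation, each time fitted alone, each replicate left out, an adjusted p under 0.10, no test, and distinct accession numbers.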

Additional observations from a re-analysis of the deposited data

Results flagged for a closer look

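The named probes were looked at again where the ratio of aged over non-aged seeds differed between 15 and 8 d by limma's test of the difference (adjusted p under 0.05 over all probes). This was so for 52 of the 63 named probes, 31 of them higher and 21 lower at 15 d. The shares among all probes of the array were 19.8% higher and 18.2% lower. Values are differences of log2 ratios, 15 d minus 8 d. The same ratios chose the predicted probes, and some probes were named for the size of this difference itself, which favours passing the test. The list is therefore a description, and nothing was read from the excess over all probes. With arrays scaled to the same median absolute deviation, 14 of the 31 and 12 of the 21 still passed.

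Among predicted probes with a nuclear or chromatin name, the difference was 0.72 for the UV-damaged DNA binding factor (PSOLI02565), 0.49 for DDI1-like (PSOLI03158), 0.29 for SWI2/SNF2-like (PSOLI03533) and 0.26 for histone H1 PSOLI04696. It was -0.55 for histone H1 PSOLI02318, -0.63 for Heme activated protein (PSOLI00822), -0.37 for HD2-P39 (PSOLI01229) and -0.21 for the MYB factor (PSOLI00662). In protein synthesis and turnover it was 0.47 for S24 (PSOLI02286), 0.46 for polyubiquitin (PSOLI02850), 0.24 for the proteasome sub-unit (PSOLI03132) and 0.20 for the RUB1 conjugating enzyme (PSOLI03202).

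Stress and stage names gave 0.52 for RD22 (PSOLI00886) and 0.16 for ci11.8 (PSOLI04970), and -1.23 for Ripening-related protein (PSOLI05102), -0.59 for Embryonic abundant protein (PSOLI03997), -0.32 for Iron-stress related protein (PSOLI01312) and -0.18 for the guard cell protein (PSOLI05134). In metabolism and signalling, 0.53 was found for the glucosyltransferase (PSOLI03429), 0.32 for AKIN beta1 (PSOLI03667), 0.31 for villin (PSOLI01863) and 0.21 for Fiddlehead-like (PSOLI03410), against -0.68 for the purple acid phosphatase (PSOLI02408) and -0.24 for PetN (PSOLI00063).

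Predicted probes without a product name that were higher at 15 d were PSOLI01600 (1.06), PSOLI03179 (0.82), PSOLI02358 (0.60), PSOLI02327 (0.58), PSOLI02839 (0.57), PSOLI01569 (0.42), PSOLI01670 (0.39), PSOLI02499 (0.38), PSOLI01726 (0.37), PSOLI05011 (0.34), PSOLI03508 (0.31), PSOLI00003 (0.27), PSOLI03060 (0.22), PSOLI02943 (0.22), PSOLI03042 (0.20) and PSOLI01929 (0.19). Those that were lower were PSOLI03419 (-1.27), PSOLI01572 (-0.66), PSOLI02878 (-0.63), PSOLI00074 (-0.51), PSOLI00595 (-0.31) and PSOLI00924 (-0.30). The sign turned with scaled arrays for PSOLI03042, at -0.06, and for the guard cell protein PSOLI05134, at 0.05.

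Among the other listed probes set beside them, the mitochondrial processing peptidase PSOLI00013 was higher by 0.30. The difference was -0.47 for sucrose synthase PSOLI04390, -0.38 for 3-ketoacyl-CoA synthase 10 (PSOLI00935), -0.37 for the steroid-binding protein PSOLI04034, -0.36 for Histone deacetylase 2a (PSOLI04371) and -0.33 for F-box/LRR-repeat protein 5 (PSOLI00977). Of the predicted probes, 10 were named for the size of this difference.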

How the results depend on the processing

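Scaling the arrays to the same median absolute deviation moved several counts by more than 1.5 times. Predicted probes up-regulated at 15 d numbered 89 in place of 136 (all 89 among the 136), and those higher at 15 d than at 8 d numbered 51 in place of 121. Named probes that passed the test of this difference numbered 14 in place of 31 among the higher and 12 in place of 21 among the lower ones, and other listed probes lower at 15 d than at 8 d numbered 154 in place of 286. Up-regulated probes of signalling, cytoskeleton and cell wall numbered 1 in place of 2. With this scaling 115 were up-regulated and 26 down-regulated at 1 or more times, against 150 and 30 as deposited, and the other listed probes held 136 and 319. In the dye term, 0 predicted probes passed after adjustment and 6 at an unadjusted p under 0.05. The counts of all predicted probes up- or down-regulated at each time and at any time, and those higher or lower at 15 d than at 8 d, stayed within 1.5 times under the other alternatives run. Leaving out each replicate gave 148 to 150 up-regulated and 29 to 30 down-regulated probes, with 61 to 65, 75 to 83 and 136 up-regulated after 8, 12 and 15 d, and 94 to 101 higher and 25 to 28 lower at 15 d than at 8 d. Replicate numbers did not pair the arrays: deviations of arrays with the same number correlated across probes at -0.012 to 0.056. With the replicate number as a block, 150 were up-regulated and 30 down-regulated, with 120 higher and 28 lower at 15 d than at 8 d. Counting distinct accession numbers gave 46 up-regulated in place of 47, and 23 down-regulated in both. Of 189 log2 ratios of named probes, 18 lost and 8 gained a call with scaling, 4 lost it with centring, and 1 gained it with the dye term. Without a replicate, 4 to 6 lost and 5 gained a call. No ratio that lost or gained a call changed its sign. Spot intensities were not analysed here, so that signal over background is unknown.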
